A study of Rattus norvegicus with 12 samples.

Results

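A set of 10 genes of the cardiac sarcomere was followed in the left atrial RNA-seq data of hypertensive and normotensive rats. They were chosen by name, as rows of the gene expression table whose symbol was Tnni1, Tnni3, Tnnt1, Tnnt2, Tnnc1, Tpm1, Mybpc3, Actc1, Acta1 or Ttn. All 10 of 10 were found, among 21239 genes with counts. The study used male rats that were 14 weeks old when bought, with 3 libraries in each of 4 groups. The WKY group (Wistar-Kyoto rats, a normotensive strain) and the SHR group (spontaneously hypertensive rats) were given saline at 7.5 ml/kg/day. The other two groups were SHRs as well: the ARB group had valsartan, an angiotensin receptor blocker, at 30 mg/kg/day, and the ARNI group had sacubitril/valsartan, in which a neprilysin inhibitor is added to valsartan, at 60 mg/kg/day. All 4 groups were treated for 4 weeks. Each library is taken as 1 rat, and p-values measure the spread between these libraries. The WKY strain stands as the only normotensive control, so blood pressure and any other difference between the strains cannot be told apart.

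The sarcomere is the contractile unit of striated muscle. Actin forms the thin filament, and tropomyosin lies along it and blocks the myosin binding sites at rest. Calcium binds troponin C, which acts through troponin I (the inhibitory subunit) and troponin T (the subunit that holds the complex on tropomyosin) to free those sites. Titin spans from the Z-disc to the M-band as a spring, and myosin binding protein C sits on the thick filament and tunes its contact with actin. Several of these proteins come from a pair of genes, and the heart shifts between them during development: Tnni1, the slow skeletal troponin I, is the fetal cardiac form and is replaced by Tnni3 after birth, while Acta1, skeletal alpha-actin, is found beside Actc1, cardiac alpha-actin.

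The labels and the tissue were checked first, since both bear on the results. For the 6 saline libraries, the title names the other strain than the library name in brackets does, and the libraries were grouped by name. The treated libraries carry the strain label Wistar-Kyoto beside a hypertensive phenotype. Mettl24 was at 3.58, 3.30 and 3.02 (CPM, a count relative to the total of its library) in the WKY libraries, was at 0.0688 CPM in ARB 2 and had no read in the other 8 libraries. Ndufa10l1 was without a read in all 3 WKY libraries, and was between 54.0 and 119 CPM in the other 9. The 3 libraries named WKY thus stood together and apart from the treated libraries in these genes.

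The tissue label, left atrium, was not borne out by chamber markers in every library. The WKY group had 15.9, 3.30 and 0.889 CPM of Myl7, which codes for the regulatory light chain of the atrium, and the SHR group had 10641, 4478 and 9152 CPM. Of Myl2, its ventricular counterpart, the WKY group had 3737, 3776 and 3489 CPM and the SHR group 0.736, 2298 and 0.135 CPM. Myl7 was thus near its lowest and Myl2 high in all 3 WKY libraries, and SHR 2 held both. Among treated libraries, ARNI 2 had Myl7 at 9.67 CPM and Myl2 at 4161 CPM, and ARB 3 had Myl7 at 5144 CPM and Myl2 at 2573 CPM. In the other 4 treated libraries Myl7 lay at 7568 to 11547 CPM and Myl2 at 2.84 to 24.2 CPM. Myl4, Sln and Nppa (atrial) were at no more than 6.87, 0.444 and 276 CPM in the WKY group, against at least 4032, 668 and 17946 CPM in the SHR group, and Myl3 (ventricular) was at 7005 to 7632 CPM in the WKY group. The strain and the chamber markers change together between the SHR and WKY groups, so they cannot be told apart there, and every difference between those groups below stands beside them. Library totals ranged from 11252361 to 15823525 counts, and at these totals a count of 0 allows up to 3 reads, or 0.190 to 0.267 CPM.

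Promoters were read for the genes on which the results turn, the pairs Acta1 and Actc1, and Tnni1 and Tnni3. The sequences are those of RefSeq, from 250 bases before to 50 bases after the start site on the GRCr8 build, each written 5′ to 3′ on the strand of the gene. The counts were made on another build, and no coordinates of the 2 builds were joined. Promoters were matched for 9 of the 10 genes, and Tnnt2 had 2 start sites. Capitals mark CArG boxes (the site of serum response factor), MCAT elements (CATTCC, the site of TEAD factors), MEF2 sites and TATA boxes (TATAAA), on either strand. The lines below give Acta1 (chr19:68784145-68784444, minus strand), Actc1 (chr3:121271778-121272077, minus strand), Tnni1 (chr13:49781279-49781578, plus strand) and Tnni3 (chr1:78342321-78342620, plus strand).
Acta1: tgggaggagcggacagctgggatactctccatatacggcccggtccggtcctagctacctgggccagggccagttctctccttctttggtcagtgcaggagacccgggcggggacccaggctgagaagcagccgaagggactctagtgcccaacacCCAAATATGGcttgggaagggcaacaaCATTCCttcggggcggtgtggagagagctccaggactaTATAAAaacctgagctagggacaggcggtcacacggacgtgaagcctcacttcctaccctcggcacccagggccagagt
Actc1: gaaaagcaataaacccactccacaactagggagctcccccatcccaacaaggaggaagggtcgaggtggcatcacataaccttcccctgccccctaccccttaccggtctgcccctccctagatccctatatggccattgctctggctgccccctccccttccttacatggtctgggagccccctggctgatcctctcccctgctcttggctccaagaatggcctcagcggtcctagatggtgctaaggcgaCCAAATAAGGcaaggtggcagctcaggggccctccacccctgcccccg
Tnni1: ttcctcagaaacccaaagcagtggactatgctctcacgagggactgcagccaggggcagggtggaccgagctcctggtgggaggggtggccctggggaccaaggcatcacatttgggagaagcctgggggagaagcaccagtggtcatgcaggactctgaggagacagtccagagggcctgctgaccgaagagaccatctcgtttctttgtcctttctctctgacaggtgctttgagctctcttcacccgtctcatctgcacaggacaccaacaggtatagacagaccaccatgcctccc
Tnni3: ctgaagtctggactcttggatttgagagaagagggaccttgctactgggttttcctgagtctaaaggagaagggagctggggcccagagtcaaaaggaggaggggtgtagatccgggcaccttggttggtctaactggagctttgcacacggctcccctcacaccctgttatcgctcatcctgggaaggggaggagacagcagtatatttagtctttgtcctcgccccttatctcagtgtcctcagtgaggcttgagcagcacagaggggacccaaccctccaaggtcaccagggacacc

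In the Acta1 window a CArG box lay at -94 to -85, an MCAT element at -67 to -62 and a TATA box at -29 to -24, counted from the start base as 1 with no 0. The Actc1 window held a CArG box at 3 to 12 and none of the other marked motifs. A CArG box was found in 1.63% of 33365 promoters of the same length, and in 2 of the 9 genes matched here. The MCAT element occurred in 14.2% of all promoters and in 4 of these genes (Tnnt2, Tpm1, Acta1, Ttn). TATA boxes occurred in 14.2% of all promoters and in Acta1 and Tnnt1. MEF2 sites occurred in 0.566% of all promoters and in Mybpc3 and Ttn. The windows of Tnni1 and Tnni3 held none of the 4. Tnni3 held a GATA motif (AGATAA, either strand, in 11.6% of all promoters) at -22 to -17, and Tnni1 held 3 E-boxes (CANNTG, in 72.1% of all promoters). These are matches of letters, and binding was not measured. In the gene order of the same assembly, Tnni3 and Tnnt1 are next to each other on chromosome 1, and Tnni1 and Tnnt2 lie on chromosome 13 with Lad1 between them.

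Tnni3, Tnnt2, Tnnc1, Tpm1, Mybpc3, Actc1 and Ttn were each above 1000 CPM in every library. Together the 10 genes held 5.46% ± 0.22 (SD, n = 3) of all counts in the WKY group, 3.95% ± 0.71 in the SHR group, 4.08% ± 0.65 in the ARB group and 4.51% ± 0.73 in the ARNI group. The WKY libraries, at 5.23% to 5.66%, lay above the SHR libraries, at 3.43% to 4.76%, and the treated libraries spanned 3.43% to 5.32%. Acta1, Tnni1 and Tnnt1 were the genes whose level varied most between libraries. The SD of their log2 CPM over the 12 libraries was 2.27, 1.21 and 0.89, against 0.25 to 0.46 for the other 7.

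**Figure D1:**
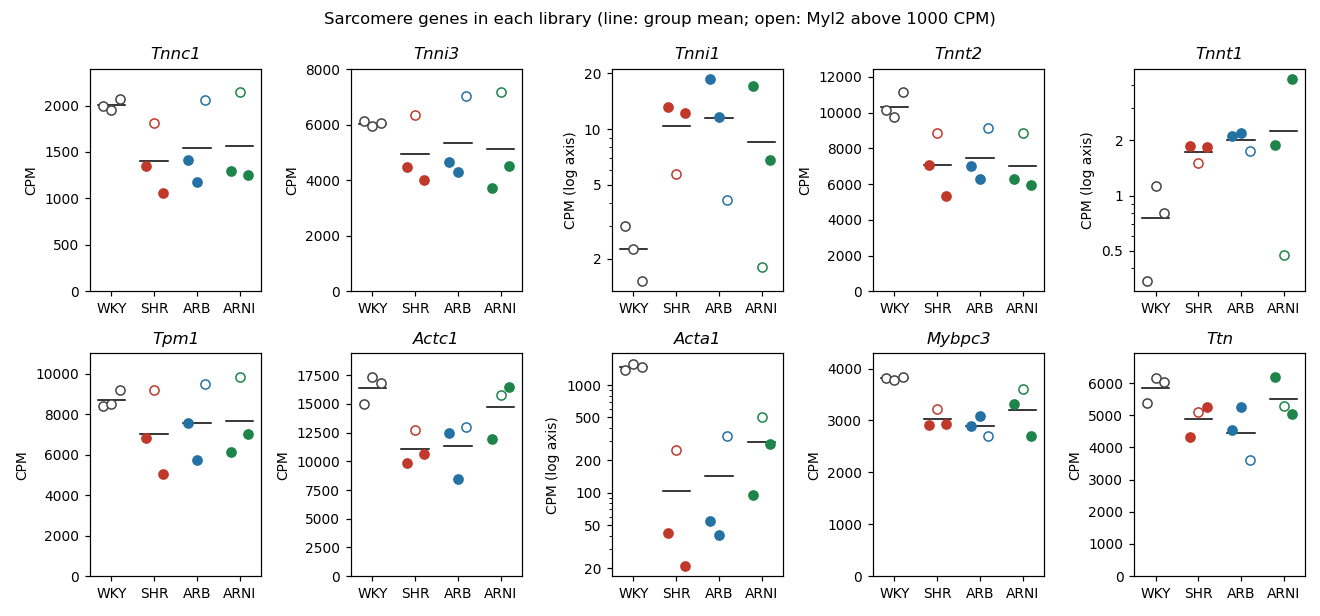
Level of each of the 10 genes in CPM (vertical axis, logarithmic for Tnni1, Tnnt1 and Acta1 and linear from 0 otherwise) in the 3 libraries of each group, with the group mean as a line. Open symbols are libraries with Myl2 above 1000 CPM. For Acta1 all WKY libraries lie at 1380 to 1583 CPM, above the other 9, and within each group of SHRs the open symbol is the highest.

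Between the SHR and WKY groups, 1 of the 10 genes was upregulated and 1 was downregulated. Tnni1 rose by 2.06 on the log2 scale (SE 0.37, adjusted p = 0.0165) and Acta1 fell by 3.91 (SE 0.96, adjusted p = 0.0352), in the quasi-likelihood fit of edgeR on 3 libraries against 3, with p-values adjusted over all genes tested by Benjamini and Hochberg. Genes were called DEGs where the log2 fold change was 1 or more in size and the adjusted p did not exceed 0.05. The other 8 were not called, and 7 of them had a lower fitted level in the SHR group. Of 13794 genes tested, 8.89% were DEGs, 5.54% higher and 3.35% lower in the SHR group. With the adjusted p alone the same 2 of the 10 passed, against 20.6% of all genes. The median log2 fold change was -0.45 over the 10 genes and 0.01 over all genes. With library totals in place of the trimmed mean scaling the median of all genes moved to 0.15, and each of the 10 kept its direction. The libraries of the groups did not overlap for 6 genes that were lower and 2 that were higher in the SHR group, against 49.5% of all genes without overlap and 15.9% without overlap and lower.

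The members of the troponin complex came in abundant cardiac forms and sparse slow skeletal forms. Tnni3, cardiac troponin I, was at 6132, 5947 and 6049 CPM in the WKY group and at 4482, 6367 and 4013 CPM in the SHR group. SHR 2 exceeded every WKY library, the groups overlapped, and the log2 fold change of -0.41 (SE 0.26, edgeR adjusted p = 0.280) was not called. Tnni1, its fetal and slow skeletal form, was at 2.98, 2.26 and 1.51 CPM in the WKY group (35, 26 and 17 reads) and at 13.2, 5.76 and 12.2 CPM in the SHR group (198, 73 and 180 reads). All 3 SHR libraries lay above the WKY libraries, the mean level was 4.62 times as high, and the lowest of them, SHR 2, was the one with ventricular markers. The rise in Tnni1 was larger without SHR 2 (log2 fold change 2.33, edgeR adjusted p = 0.00122). The call of Tnni1 was lost without SHR 1 or without any of the 3 WKY libraries (edgeR adjusted p = 0.0542 to 0.0758).

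Tnnt2, cardiac troponin T, was at 10134, 9746 and 11135 CPM in the WKY group and at 7052, 8882 and 5335 CPM in the SHR group. The groups did not overlap, but the log2 fold change of -0.67 (SE 0.28, edgeR adjusted p = 0.132) was not called. Tnnt1, slow skeletal troponin T, was at 0.341, 1.13 and 0.800 CPM in the WKY group (4, 13 and 9 reads) and at 1.87, 1.498 and 1.83 CPM in the SHR group (28, 19 and 27 reads). It passed the filter on low counts, at 0.819 CPM in this comparison, through 3 SHR libraries and 1 WKY library. The groups did not overlap, and the log2 fold change was 1.05 (SE 0.42, edgeR adjusted p = 0.115), not called. Tnnc1, the calcium-binding troponin C of heart and slow muscle, was at 1994, 1947 and 2070 CPM in the WKY group and at 1350, 1812 and 1055 CPM in the SHR group. Its log2 fold change was -0.63 (SE 0.25, edgeR adjusted p = 0.113), and again SHR 2 was the library nearest to the WKY group.

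Sarcomeric actin showed the widest range. Actc1 was at 15005, 17313 and 16836 CPM in the WKY group and at 9816, 12734 and 10620 CPM in the SHR group. The groups did not overlap, and the log2 fold change of -0.70 (SE 0.25, edgeR adjusted p = 0.0894) was not called. Acta1 was at 1380, 1583 and 1462 CPM in the WKY group and at 42.7, 248 and 20.9 CPM in the SHR group, with means of 1475 ± 102 and 104 ± 125 CPM (SD, n = 3), which makes the WKY mean 14.2 times the SHR mean. SHR 2 stood above the other SHR libraries, and without it the log2 fold change of Acta1 was -5.68 (edgeR adjusted p = 0.000195) in place of -3.91. The call was lost without SHR 1 or without any WKY library (edgeR adjusted p = 0.0974 to 0.107). Acta1 and Actc1 code for near-identical proteins, and their expected counts were not whole in 12 of 12 libraries, so some reads were divided among genes. Which genes shared them was not examined, and the split between Acta1 and Actc1 is uncertain.

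Tropomyosin and the long filament proteins differed less. Tpm1, the main cardiac tropomyosin, was at 8405, 8499 and 9217 CPM in the WKY group and at 6822, 9180 and 5033 CPM in the SHR group, which overlapped (log2 fold change -0.43, SE 0.30, edgeR adjusted p = 0.320). Mybpc3, cardiac myosin binding protein C, was at 3829, 3772 and 3832 CPM in the WKY group and at 2922, 3219 and 2926 CPM in the SHR group. Its groups did not overlap and the log2 fold change was -0.47 (SE 0.17, edgeR adjusted p = 0.0920). Ttn, titin, was at 5383, 6144 and 6027 CPM in the WKY group and at 4318, 5116 and 5243 CPM in the SHR group, with a log2 fold change of -0.39 (SE 0.19, edgeR adjusted p = 0.175). For neither Mybpc3 nor Ttn was the difference called. In bulk tissue, fewer cells of a type and less RNA per cell cannot be told apart.

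**Figure D2:**
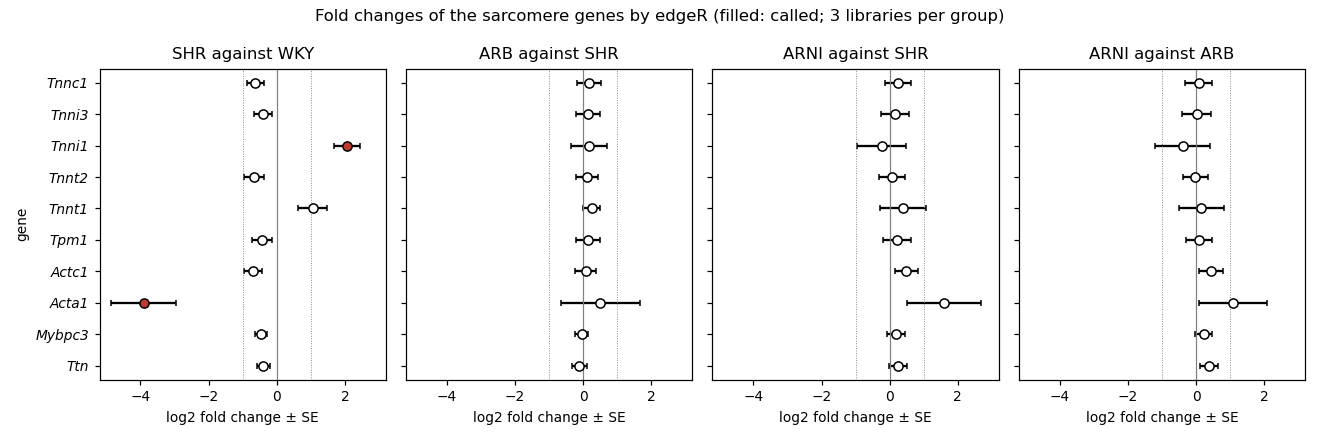
Log2 fold change with its SE (horizontal axis) of the 10 genes in 4 comparisons by edgeR, 3 libraries per group, with dotted lines at -1 and 1 and filled points for called genes. Tnni1 (2.06) and Acta1 (-3.91) are the filled points, both between the SHR and WKY groups.

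Shares within a pair of genes do not depend on library scaling. Tnni1 made up 0.0372% ± 0.0119 (SD, n = 3) of troponin I counts in the WKY group, 0.229% ± 0.120 in the SHR group, 0.242% ± 0.172 in the ARB group and 0.210% ± 0.221 in the ARNI group. It was 0.0252% (95% Wilson interval 0.0168% to 0.0378%) in ARNI 2, within the WKY range, and 0.455% (0.404% to 0.512%) in ARNI 1. Even where it was highest, less than 1% of troponin I counts came from Tnni1. Tnnt1 made up 0.00738% ± 0.00412 of troponin T counts in the WKY group, 0.0259% ± 0.0087 in the SHR group, 0.0281% ± 0.0081 in the ARB group and 0.0361% ± 0.0341 in the ARNI group. Acta1 made up 8.26% ± 0.24 of sarcomeric actin counts in the WKY group, 0.846% ± 0.927 in the SHR group, 1.14% ± 1.18 in the ARB group and 1.86% ± 1.16 in the ARNI group. For each of the 3 shares the WKY and SHR libraries did not overlap, and the two-sided exact permutation test gave p = 0.1, the smallest that 3 libraries against 3 allow. The intervals take in the counting error within each library alone, and not the spread between rats or the uncertain split of actin reads. PCR copies of a molecule could not be told from separate molecules, so the intervals may be too narrow.

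**Figure D3:**
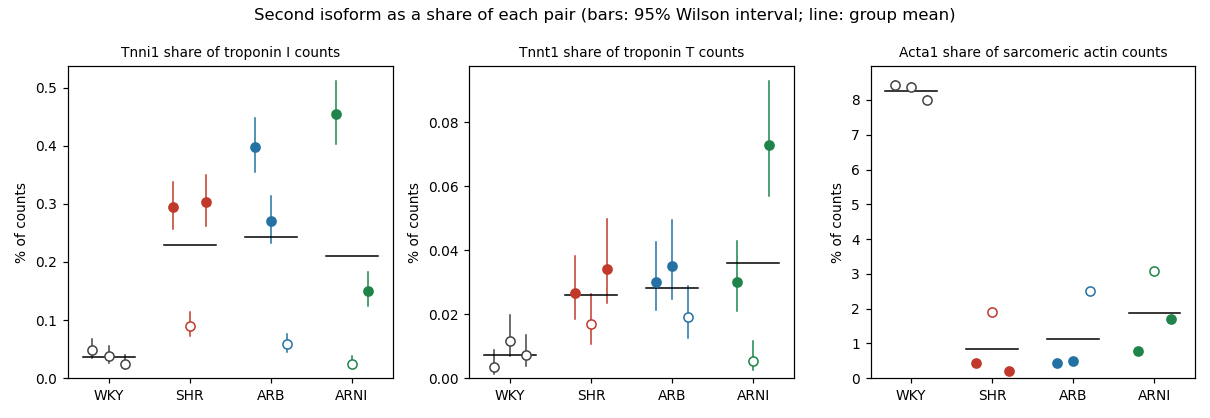
Share of counts (%, vertical axis) of Tnni1 in Tnni1 plus Tnni3, of Tnnt1 in Tnnt1 plus Tnnt2, and of Acta1 in Acta1 plus Actc1 in each library, with 95% Wilson intervals as bars, group means as lines and open symbols where Myl2 was above 1000 CPM. The WKY libraries hold the highest Acta1 shares (7.99% to 8.42%). Within each of the SHR, ARB and ARNI groups the open symbol has the lowest Tnni1 share and the highest Acta1 share.

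For the 3 genes that varied most, the library with ventricular markers lay at the end of the range within each group of SHRs. The remaining libraries did not always keep the order of the chamber markers for Acta1 and Tnnt1. Acta1 was at 54.4, 41.0 and 333 CPM in the ARB group and at 94.4, 502 and 287 CPM in the ARNI group. The highest values, in ARB 3 and ARNI 2, were those of the libraries with ventricular markers. ARNI 3 had 287 CPM with Myl2 at 24.2 CPM, and it also had the highest Acta2 (smooth muscle actin), 351 CPM against 51.6 to 168 CPM in the other 11. Acta2 was not alone in this. The smooth muscle markers Tagln and Myh11 were also highest in ARNI 3, at 154 CPM each, against no more than 40.4 and 90.6 CPM in the other 11. Des, from the same marker list, was not highest there (2527 CPM). Of the other sarcomere genes listed below, Fhl1, Mybpc1 and Ankrd2 were at 1303, 47.9 and 15.4 CPM in ARNI 3. In the other 11 libraries they were at no more than 518, 5.30 and 1.69 CPM. Tnni1 was at 18.7, 11.6 and 4.12 CPM in the ARB group and at 17.1, 1.81 and 6.78 CPM in the ARNI group, lowest in ARB 3 and ARNI 2. Tnnt1 was at 2.12, 2.201 and 1.74 CPM in the ARB group and at 1.90, 0.472 and 4.34 CPM in the ARNI group, lowest in ARNI 2 and highest in ARNI 3. The part of the chamber markers in these values was not tested.

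**Figure D4:**
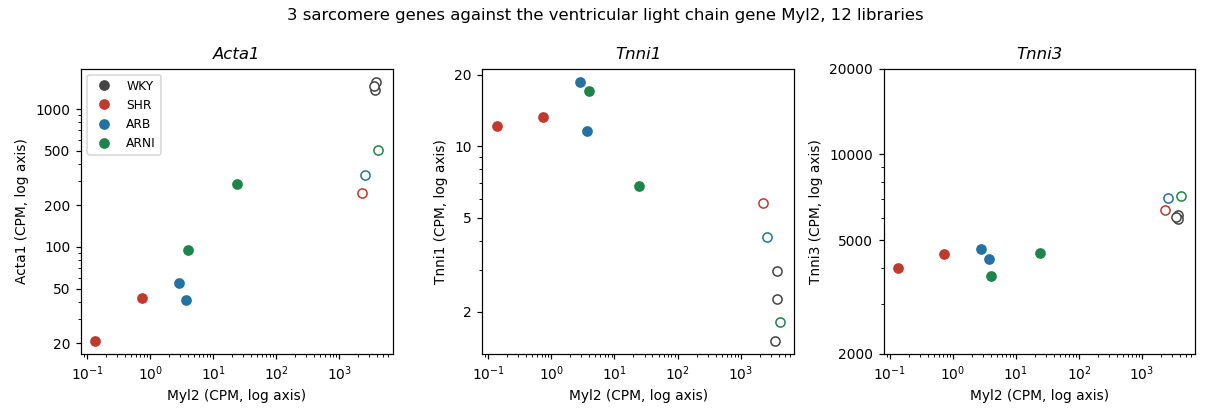
Acta1, Tnni1 and Tnni3 (CPM, vertical axes, logarithmic) against Myl2 (CPM, horizontal axis, logarithmic) in the 12 libraries, with colour for the group and open symbols for Myl2 above 1000 CPM. The 6 libraries with high Myl2 hold the 6 lowest Tnni1 values (1.51 to 5.76 CPM), and among them the 3 SHR, ARB and ARNI libraries have Acta1 at 248 to 502 CPM, below the WKY libraries.

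ARNI 2 gives values of a treated SHR library that, like the WKY libraries, had low Myl7 and high Myl2 and Myl3. Its chamber markers did not match theirs in full. Myh7, a ventricular marker, was at 5907 CPM in ARNI 2 and at 32130 to 32744 CPM in the WKY libraries. The summed ventricular markers were at 18648 CPM against 43377 to 43721 CPM. Tnni1 (1.81 CPM), Tnnt1 (0.472 CPM) and Actc1 (15765 CPM) fell within the WKY range there. Tnni3 (7168 CPM), Tnnc1 (2141 CPM) and Tpm1 (9826 CPM) lay above the WKY range, and Tnnt2 (8850 CPM), Mybpc3 (3612 CPM) and Ttn (5292 CPM) lay below it. Acta1, at 502 CPM, was the gene farthest from the WKY range, and the WKY mean was 2.94 times that value. It is 1 library, so there is no error on these values.

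No difference of the 10 genes was called for either treatment. Against the SHR group, 0 of the 10 were called in the ARB group and 0 in the ARNI group, and 0 were called between the ARNI and ARB groups, where edgeR's test called 0% of all genes in each comparison. At an unadjusted p below 0.05 edgeR had 225, 227 and 539 genes in these comparisons, of 13979, 13955 and 13948 tested, and DESeq2 called 3, 7 and 18 genes, none of them among the 10. Both treated groups were compared with the same SHR libraries, so their differences from them are not independent. The largest fitted differences were those of Acta1. Its log2 fold change was 0.49 (SE 1.16, edgeR adjusted p = 0.9999) in the ARB group and 1.59 (SE 1.08, edgeR adjusted p = 0.999) in the ARNI group against the SHR group, and 1.09 (SE 1.003, edgeR adjusted p = 0.993) in the ARNI group against the ARB group. Without the libraries that held ventricular markers it was 0.61, 2.61 and 2.002, again not called.

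For the cardiac forms of the thin filament, the libraries of each treated group were spread widely. Actc1 was at 12439, 8485 and 12979 CPM in the ARB group and at 11947, 15765 and 16441 CPM in the ARNI group. Its log2 fold change against the SHR group was 0.07 (SE 0.30) and 0.49 (SE 0.34), with edgeR adjusted p of 0.9999 and 0.999. Tnni3 was at 4677, 4291 and 7036 CPM in the ARB group and at 3737, 7168 and 4516 CPM in the ARNI group. As in the SHR group, the library with ventricular markers was the highest of each group, and the log2 fold changes against the SHR group were 0.14 (SE 0.34) and 0.15 (SE 0.42). Tnnt2 was at 7031, 6279 and 9118 CPM in the ARB group and at 6285, 8850 and 5960 CPM in the ARNI group. Tnnc1 was at 1414, 1173 and 2055 CPM in the ARB group and at 1292, 2141 and 1252 CPM in the ARNI group. Tpm1 was at 7558, 5734 and 9476 CPM in the ARB group and at 6156, 9826 and 7003 CPM in the ARNI group. For these 3 genes too, ARB 3 and ARNI 2 were the highest of their group, and the log2 fold changes against the SHR group were between 0.08 (SE 0.38, Tnnt2 in the ARNI group) and 0.25 (SE 0.38, Tnnc1 in the ARNI group).

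Mybpc3 did not follow that order in the ARB group, and Ttn did not follow it in any group of SHRs. Mybpc3 was at 2901, 3079 and 2702 CPM in the ARB group and at 3315, 3612 and 2709 CPM in the ARNI group. Ttn was at 4538, 5244 and 3599 CPM in the ARB group and at 6180, 5292 and 5039 CPM in the ARNI group. ARB 3, with ventricular markers, was the lowest ARB library for both genes. The log2 fold changes against the SHR group were -0.04 (SE 0.19) and 0.18 (SE 0.26) for Mybpc3 and -0.11 (SE 0.22) and 0.25 (SE 0.26) for Ttn in the ARB and ARNI groups. Tnni1 had log2 fold changes of 0.17 (SE 0.53) and -0.23 (SE 0.72) and Tnnt1 of 0.25 (SE 0.25) and 0.40 (SE 0.67) in the same order. For these genes the SE of the difference was at least as large as 0.19 on the log2 scale, so a p above the threshold does not show that the groups were alike.

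The strains as the titles spell them would make the libraries named WKY the untreated controls of the treated groups. With them as controls, Tnni1 was higher (log2 fold change 2.25, SE 0.54, edgeR adjusted p = 0.0231) and Acta1 lower (log2 fold change -3.40, SE 0.85, edgeR adjusted p = 0.0259) in the ARB group, 2 of the 10 genes against 11.1% of 13786 genes tested. In the ARNI group 0 of the 10 were called, against 0.249% of 13656 genes tested. This group mixed chamber markers, with Myl7 at 9.67 CPM in ARNI 2 and at 8638 and 7568 CPM in ARNI 1 and ARNI 3. The part of this mix in the low share was not tested. In the ARNI group Tnni1 had a log2 fold change of 1.84 (SE 0.75, edgeR adjusted p = 0.259) and Acta1 of -2.33 (SE 0.61, edgeR adjusted p = 0.166) against these libraries. In Mettl24 and Ndufa10l1 the libraries named WKY stood apart from the treated ones, as given above. Their Myl2 was at 3489 to 3776 CPM, against 2.84 and 3.71 CPM in ARB 1 and ARB 2. Treatment, strain and chamber markers thus cannot be told apart in these differences.

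Other genes of the thin filament and its regulators were described from a list of 18, of which 16 were tested. In the SHR group against the WKY group 2 rose and 2 fell, beside 5.54% of all genes higher and 3.35% lower, the median log2 fold change was -0.12, and 12 were not called. Neb, nebulin, the ruler of the skeletal thin filament, was at 5.11, 8.17 and 4.44 CPM in the WKY group and at 315, 94.9 and 155 CPM in the SHR group, a rise of 4.85 on the log2 scale (SE 0.52, edgeR adjusted p = 0.00433). Tpm2, beta-tropomyosin, was at 13.8, 14.001 and 19.4 CPM in the WKY group and at 139, 70.4 and 129 CPM in the SHR group, a rise of 2.69 (SE 0.27, edgeR adjusted p = 0.00403). Both were low in ARNI 2 as well, at 2.91 CPM for Neb and 13.0 CPM for Tpm2. Xirp2, an actin-binding protein of the intercalated disc, and Fhod3, a formin that builds thin filaments, fell by 1.15 (SE 0.23, edgeR adjusted p = 0.0214) and 1.14 (SE 0.29, edgeR adjusted p = 0.0392) on the log2 scale.

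In the list of the thick filament and M-band, 21 of 22 genes were tested, 4 rose and 1 fell, again beside 5.54% and 3.35% of all genes, with a median of -0.18. Of those that rose, Mybphl passed the filter on low counts through the SHR libraries alone, with 1, 0 and 1 reads in the WKY group and 384 to 825 CPM in the SHR group, so no fold is given. The others were Myl4 (log2 fold change 10.59, SE 0.64, edgeR adjusted p = 0.00146), Myl7 (10.09, SE 1.22, edgeR adjusted p = 0.00585) and Mybph (1.17, SE 0.23, edgeR adjusted p = 0.0196). Myh7, the slow beta-myosin heavy chain, fell by 4.65 (SE 1.04, edgeR adjusted p = 0.0275). Myl4, Myl7 and Mybphl are also chamber markers of the atrium, and Myh7 is one of the ventricle. In the list of Z-disc and titin partners, 30 of 32 were tested, with a median of -0.17, and 3 were called, a share near the 8.89% of all genes. Capn3 (log2 fold change 1.83, SE 0.49, edgeR adjusted p = 0.0438, at or above the count filter in 1 WKY library and 3 SHR libraries), a protease that binds titin, and Pdlim3 (1.80, SE 0.24, edgeR adjusted p = 0.00703) rose, and Pdlim5 fell by 1.18 (SE 0.19, edgeR adjusted p = 0.0129). Of 20 regulators of sarcomere genes, all tested, Tbx5 alone was called, with a log2 fold change of 2.88 (SE 0.26, edgeR adjusted p = 0.00316), again near the share of all genes, and the median of the list was 0.18. In the comparisons between the 3 groups of SHRs, 0 genes of these 4 lists were called.

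**Figure D5:**
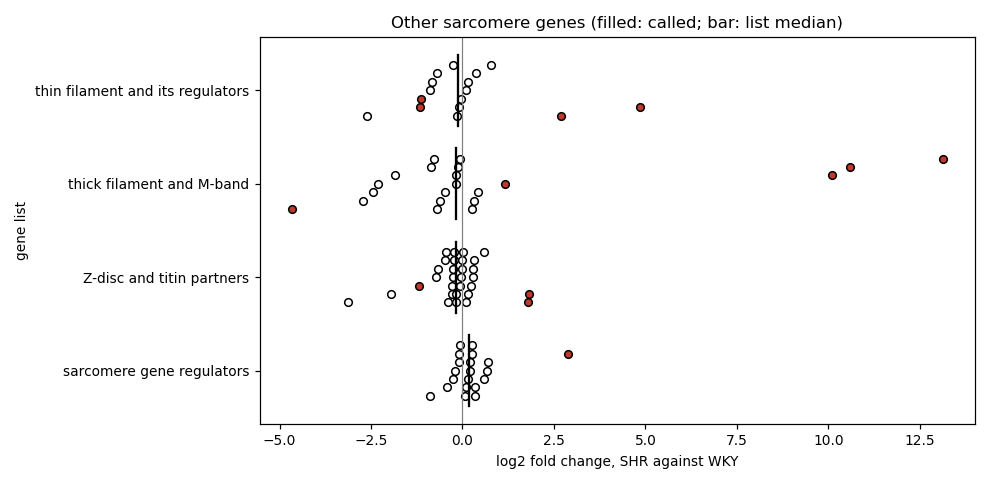
Log2 fold change of the SHR group against the WKY group by edgeR (horizontal axis) for 4 lists of other sarcomere genes (vertical axis), 1 point per gene, filled where called, with a bar at the median of the list. The medians lie between -0.18 and 0.18, while Myl4 (10.59) and Myl7 (10.09) lie far above them. The point farthest to the right, Mybphl, rests on WKY libraries with 1, 0 and 1 reads.

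Markers of other cell types were set beside these differences. Of all genes tested, 5.54% were called higher and 3.35% lower in the SHR group, so 1 call in a short list says little. Of 12 atrial markers 11 rose, of which Sln, Mybphl and Bmp10 were below the count filter in all 3 WKY libraries. The summed level of the 12 was 444 to 624 CPM in the WKY group and 28557 to 78851 CPM in the SHR group. The remaining one, Kcna5, was lower in the SHR group without overlap, but not called (log2 fold change -1.76, SE 0.55, edgeR adjusted p = 0.0640). Of 8 ventricular markers 2 fell (Myh7 and Irx5), and their sum was 43377 to 43721 CPM against 409 to 9899 CPM. Of 7 mesothelium markers 6 rose, among them Upk1b (log2 fold change 2.77, SE 0.30, edgeR adjusted p = 0.00438) and Krt19 (2.06, SE 0.30, edgeR adjusted p = 0.00940), with a sum of 61.5 to 83.8 CPM in the WKY group against 223 to 462 CPM in the SHR group. Of 16 skeletal muscle markers 6 were tested and 2 rose. Myl1, with 7, 4 and 5 reads in the WKY group and 9.28 to 11.6 CPM in the SHR group, passed the count filter through the SHR libraries alone, and Atp2a1 (log2 fold change 3.06, SE 0.39, edgeR adjusted p = 0.00672) through 2 WKY libraries and 3 SHR libraries. The fast myosin heavy chains Myh1, Myh2 and Myh4, which define fast skeletal fibres, were at no more than 0.717 CPM in any library. Of 8 smooth muscle markers Myh11 fell by 1.13 (SE 0.30, edgeR adjusted p = 0.0421), with sums of 3489 to 3698 CPM in the WKY group and 2064 to 3151 CPM in the SHR group. Most of these sums came from Des, at 3147 to 3283 CPM in the WKY group and 1740 to 2810 CPM in the SHR group. Des is also in the list of Z-disc and titin partners, so the sums do not stand for smooth muscle alone. Of 6 erythroid markers Alas2 fell by 1.44 (SE 0.40, edgeR adjusted p = 0.0479), with sums of 824 to 1726 CPM against 315 to 854 CPM. No marker of fibroblasts, endothelium or adipose tissue (8 genes each, of which 8, 8 and 3 were tested) was called. The part of these cells in the differences of Tnni1 and Acta1 was not tested.

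Likeness between the 10 genes differed from pair to pair. Over the 12 libraries, Pearson's r of log2 CPM was 0.97 between Tnnt2 and Tnnc1, 0.97 between Tnnc1 and Tpm1, 0.96 between Tnni3 and Tnnc1 and -0.89 between Tnni1 and Acta1. It was lower for Mybpc3 and Tnni3 (0.67), and Ttn had 0.22 with Tnni3, 0.28 with Tpm1, 0.37 with Tnnc1 and 0.42 with Tnnt2. Among 14442 genes, the ones whose pattern was most like that of Acta1 were Mrpl47 (r = 0.98), Sucla2 (0.98) and Hccs (0.98). Most like Tnni1 were Stk36 (0.99), Klf8 (0.99) and Zfp219 (0.99), most like Tnnt1 were Ell3 (0.95), Slc25a48 (0.92) and Camkmt (0.92), and most like Tnnc1 were Vdac3 (0.98), Ufd1 (0.98) and Cnbp (0.98). These values are descriptions over 12 libraries that separate by chamber markers, and the same libraries and scaling stand behind every pair.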

How the data were processed

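RNA of rat left atrium was sequenced as single-end reads on a BGISEQ-500 after oligo-dT enrichment, with 12 libraries in 4 groups. The authors removed poor reads (SOAPnuke), mapped the rest with HISAT2 2.0.4 and Bowtie2 2.2.5 (the submitters' processing notes name Rnor_6.0), and deposited the expected counts of RSEM, that is estimated counts without normalization. A read that fits several genes is divided among them, and 23.6% of the values were not whole. The deposited table also holds the authors' own log2 ratio and p-value for SHR and WKY, which were not used. Libraries were grouped by the names in their titles.

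Expected counts were rounded, filtered with filterByExpr (minimum count 10), scaled by TMM and compared in pairs of groups with edgeR 4.0.16 (R 4.3.3), each fit on its 6 libraries. The study used DESeq2, which is an alternative here (version 1.42.0). SEs were derived from the F statistic. CPM values are relative to the library total, without TMM. Gene levels were not compared per length. For correlations, 1 prior count was added before taking log2 CPM. The 10 genes and all lists were chosen with earlier results of these data known. All 10 genes are named, and from each list genes among the called ones with the 3 largest or 3 smallest log2 fold changes, beside Myl7, Myl4, Sln, Nppa, Myl2 and Myl3 for the chamber, Mettl24 and Ndufa10l1 for the strain and, for likeness, the 3 genes nearest to each of the 4 genes that varied most. Myh1, Myh2, Myh4, Acta2, Tagln, Des, Kcna5, Fhl1, Mybpc1 and Ankrd2 were added after their values were seen, as were the levels of Myh11 in single libraries. The steps were tested on simulated data, in which all genes had the same spread setting and no library stood out. That test does not cover groups such as the SHR group, where SHR 2 held ventricular markers. Python 3.11.15 was used with pandas 2.3.3, scipy 1.17.1 and matplotlib 3.10.9.

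Totals of 11252361 to 15823525 counts set the precision, and 3 reads stood for 0.190 to 0.267 CPM. Replicate numbers were checked for pairing by the correlation of deviations from the group means: for the ARNI and SHR groups all 3 pairs were above 0.1 (0.51, 0.46 and 0.19), while the other comparisons had at least 1 pair below 0. For the ARNI group against the SHR group the replicate block called 0 genes, as without it. Alternatives were DESeq2, other size factors, library totals, no filter, 1 fit of all libraries, the replicate block, no fold threshold, other controls, and each library left out in turn.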

Additional observations from a re-analysis of the deposited data

How the results depend on the processing

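Between the SHR and WKY groups, all 10 genes kept their direction under every alternative. The 2 calls remained with DESeq2, other size factors, library totals and no filter, and with the replicate block, and both were lost in 1 fit of all 12 libraries (edgeR adjusted p = 0.0971 for Tnni1 and 0.0612 for Acta1), which left 0 of the 10. Leaving out 1 library gave 0 to 2 of the 10 and 348 to 2205 genes in all, the latter without SHR 2. Over all genes, 579 were called in 1 fit of all libraries, 2837 with no fold threshold, and 681 with the replicate block in place of 1226. Same-numbered libraries of these groups did not deviate together (correlations 0.03, -0.05 and -0.08), so the numbers are no pairing. With the replicate block the exact p of the 3 shares was 0.25, the smallest it allows. The cause of these changes was not tested.

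In the treated groups DESeq2 called 3 genes in the ARB group and 7 in the ARNI group against the SHR group, and 18 between the treated groups, with 0 of the 10 in each. With controls taken by strain words, 2 of the 10 were called in the ARB group, where 11.1% of all genes were. Uncalled log2 fold changes turned direction when 1 library was left out. In the ARB group against the SHR group they then spanned -0.39 to 0.55 (Tnni1), -0.17 to 0.42 (Tnni3), -0.11 to 0.35 (Tnnt2), -0.14 to 0.45 (Tnnc1), -0.10 to 0.44 (Tpm1), -0.10 to 0.055 (Mybpc3), -0.089 to 0.27 (Actc1) and -1.18 to 2.29 (Acta1). In the ARNI group against the SHR group they spanned -1.20 to 0.23 (Tnni1), -0.27 to 0.42 (Tnni3), -0.45 to 0.85 (Tnnt1), -0.21 to 0.32 (Tnnt2), -0.15 to 0.52 (Tnnc1) and -0.10 to 0.50 (Tpm1). In the ARNI group against the ARB group they spanned -1.38 to 0.17 (Tnni1), -0.40 to 0.33 (Tnni3), -0.69 to 0.60 (Tnnt1), -0.31 to 0.20 (Tnnt2), -0.32 to 0.40 (Tnnc1) and -0.24 to 0.32 (Tpm1). Without the libraries that held ventricular markers, an alternative chosen after seeing the data, the direction turned for Mybpc3 (0.058) and Ttn (0.061) in the ARB group against the SHR group, and for Tnni3 (-0.10), Tnnc1 (-0.0097) and Tpm1 (-0.0033) in the ARNI group against the ARB group. With library totals Tnnt2 was at -0.011 in the ARNI group against the SHR group and Tnni3 at -0.053 against the ARB group, in 1 fit of all libraries Tnni3 was at -0.0038, and with the replicate block Tnni3 and Tnnt1 were at -0.027 and -0.19. Depth bears most on Tnnt1, which had 4 to 64 reads per library.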
